A study of Mus musculus with 10 samples.

Results

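The genes examined here encode the calcium release channels of the sarcoplasmic reticulum and the proteins that build the dyad, the cleft where that store meets the T-tubule of a heart muscle cell. They were taken from the deposited count table by their gene symbols, and all 10 were found among 38355 genes. They are the ryanodine receptor gene Ryr2, the IP3 receptor genes Itpr1 and Itpr2, the channel partners Trdn, Asph, Fkbp1a and Fkbp1b, and the dyad organisers Jph1, Jph2 and Bin1. RNA was sequenced from cardiomyocytes of adult FVB/N mice, isolated by perfusing the excised heart through its vessels and left untreated. The transgenic mice carried the Epac1-PLN transgene, which encodes a FRET biosensor that the series title calls cardiac specific, and whose name joins the cAMP sensor Epac1 to phospholamban (PLN). The controls were wildtype mice of the same strain. Each genotype had 5 mice, 3 females and 2 males. The promoter of the transgene, the number of founder lines and the ages in weeks are details not given in the sources used here.

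During each heartbeat, calcium that enters through L-type channels of the T-tubule opens ryanodine receptors across the dyadic cleft, and the store empties into the cytosol. Triadin and junctin hold the channel to the calcium buffer inside the store, FK506-binding proteins bind its cytosolic face, and junctophilins span the cleft between the membranes. IP3 receptors are a second class of release channel, scarcer in the ventricle and known from the perinuclear store. The comparison asks whether the transcripts of this release machinery differ in cells that carry a sensor fused to a protein of the same store.

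The libraries held 10632224 to 20983754 counts. Levels are given as CPM, counts per 1000000 counts of the library's tested genes after scaling with TMM factors. Rapgef3, which encodes Epac1, matched the genotype labels of all 10 libraries, at 1241 to 1741 CPM among Epac1-PLN libraries and 10.4 to 15.9 CPM in wildtype cells. Pln averaged 10249 ± 1428 CPM in Epac1-PLN cells, compared with 11105 ± 1292 CPM in wildtype cells (SD, n = 5 each). In counts per gene, reads of the transgene and of the endogenous Rapgef3 and Pln genes cannot be told apart. All 9 genes of the cardiomyocyte marker list were detected, and their summed level was 96875 to 110104 CPM among Epac1-PLN libraries and 99894 to 116320 CPM in wildtype cells. The summed endothelial markers were at 396 to 782 CPM in Epac1-PLN cells, compared with 401 to 644 CPM in wildtype cells, and the fibroblast markers at 257 to 432 CPM among Epac1-PLN libraries and 242 to 449 CPM in wildtype cells. The smooth muscle and pericyte markers summed to 451 to 852 CPM in Epac1-PLN cells, compared with 305 to 759 CPM in wildtype cells. Macrophage and leukocyte markers summed to 33.3 to 70.6 CPM among Epac1-PLN libraries and 28.0 to 58.1 CPM in wildtype cells, and atrial markers to 27.9 to 74.8 CPM in Epac1-PLN cells, compared with 22.0 to 68.4 CPM in wildtype cells. Each of these lists overlapped between the genotypes, and no listed marker found in the table was at 0 in all libraries. Epac1-PLN replicate 4 was the least correlated library, with a median Spearman rho of 0.983 to the others.

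None of the release and dyad genes passed the test for a difference between the genotypes. The 95% intervals of their log2 fold changes lay within -0.40 and 0.58, and within -0.36 and 0.41 for the 8 genes other than Bin1. Of the 10 genes, 9 passed the count filter and could be tested, and 0 of them changed with genotype at an adjusted p under 0.05 (edgeR's quasi-likelihood test, Benjamini-Hochberg adjustment over all 12629 tested genes). The share called among all tested genes was 0.641%, or 81 genes, and 14 to 103 genes were called with single libraries left out. DESeq2 and limma-voom also called 0 of the 9. At an unadjusted p under 0.05, 2 of the 9 passed, Trdn on the higher and Jph1 on the lower side, where 12.2% of all tested genes passed, 6.76% on the higher and 5.4% on the lower side. Of the 9 genes, 0 separated the genotypes without overlap, against 2.75% of all tested genes. Their median log2 fold change was 0.02, and that of all tested genes was 0.00. The median absolute log2 fold change was 0.09 over the 9 genes and 0.10 over all tested genes. Of the tested cell type markers, 8 of 8 endothelial ones had genotype estimates above 0 (median log2 fold change 0.14). So had 7 of 8 macrophage and leukocyte (0.22), 4 of 9 cardiomyocyte (-0.01) and 4 of 8 fibroblast markers (-0.04). For smooth muscle and pericyte markers it was 3 of 7 (-0.05), and for atrial markers 2 of 3 (0.41). None was called, and Myl3 and Mb were lower at an unadjusted p under 0.05 (edgeR). The part of cell types in the estimates was not tested. In RNA of many cells, a change in the share of cardiomyocytes and a change in RNA per cardiomyocyte cannot be told apart.

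The genes spanned a wide range of levels, and the order of their levels per kb of exon union was the same in every library. Dividing CPM by the summed length of all annotated exons (kb) allows a rough comparison of genes. The lengths come from the annotation GENCODE M21. Its coordinates differ from those of the deposited table for Ryr2, Trdn, Jph1, Fkbp1b, Itpr1 and Bin1, so their lengths may differ from those behind the counts. On this scale Jph2 was the most abundant, at 225 ± 27.2 CPM per kb over all 10 libraries (SD). Ryr2 followed at 82.0 ± 10.5, Trdn at 55.9 ± 7.11, Fkbp1a at 34.8 ± 2.09 and Asph at 23.9 ± 1.6 CPM per kb. Jph1 was at 9.17 ± 1.19, Itpr2 at 2.29 ± 0.257, Itpr1 at 1.54 ± 0.140, Bin1 at 0.576 ± 0.137 and Fkbp1b at 0.205 ± 0.113 CPM per kb. Each gene lay above the next in this order in 10 of 10 libraries. With the longest transcript as the length, an alternative added after seeing the data, the order of the means was the same, but not that of every library. Ryr2 then lay above Trdn in 8 of 10 libraries, Fkbp1a above Asph in 9 of 10 and Itpr2 above Itpr1 in 4 of 10. Itpr2 and Itpr1 were within their spread, at 2.91 ± 0.325 and 2.86 ± 0.259 CPM per kb. The folds between genes also depended on the length used.

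**Figure D1:**
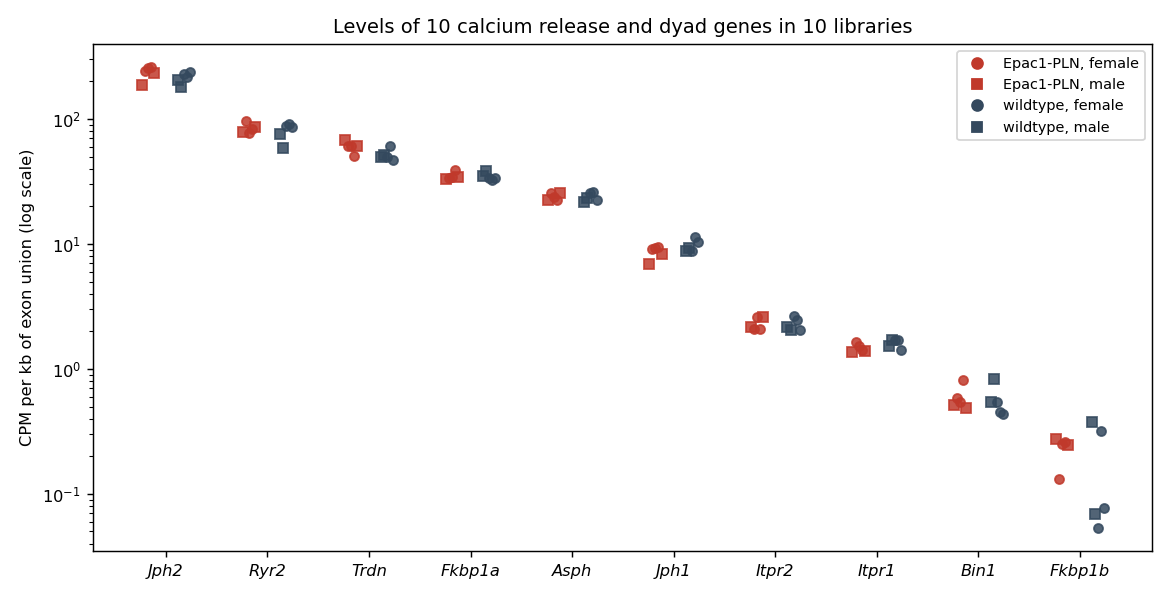
Level of each gene in each library, as CPM per kb of exon union on a log axis, for Epac1-PLN cells (red, left of each pair) and wildtype cells (dark, right), with females as circles and males as squares. The genes run from Jph2 at 225 to Fkbp1b at 0.205 CPM per kb, and the genotypes overlap for each gene.

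Ryr2 encodes the main calcium release channel of the heart (ENSMUSG00000021313, chromosome 13, 11553103 to 12106945, minus strand; all coordinates are those of the deposited table, mm10). It was at 2253, 2798, 2206, 2382 and 2478 CPM in Epac1-PLN replicates 1 to 5 and at 2177, 1689.65, 2529, 2608 and 2482 CPM in wildtype replicates 1 to 5. The groups overlapped, and wildtype replicate 2, a male, was the lowest library. The log2 fold change was 0.09 ± 0.10 (SE), with a 95% interval of -0.12 to 0.30 and an adjusted p of 0.781 (edgeR). In females, Ryr2 was at 2206 to 2798 CPM among Epac1-PLN libraries and 2482 to 2608 CPM in wildtype cells (n = 3 each). Among males it was at 2253 to 2478 CPM in Epac1-PLN cells, compared with 1689.65 to 2177 CPM in wildtype cells (n = 2 each). The females overlapped and the males did not, and with 2 males a genotype the same held for 6 of the 9 tested genes and 41.6% of all tested genes. The genotype-by-sex term for Ryr2 was -0.34 ± 0.18 on the log2 scale, with an adjusted p of 0.993 (edgeR). Without wildtype replicate 2 the log2 fold change was 0.01, and in females alone it was -0.04.

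Itpr1 and Itpr2 encode receptors for the second messenger IP3. Itpr1 (ENSMUSG00000030102, chromosome 6, 108213118 to 108551109, plus strand) was at 25.04, 30.0, 28.1, 26.0 and 25.6 CPM in Epac1-PLN replicates 1 to 5 and at 28.2, 31.2, 31.4, 31.3 and 25.9 CPM in wildtype replicates 1 to 5. In wildtype cells 3 of 5 libraries lay above every Epac1-PLN library, and the ranges overlapped. The log2 fold change of Itpr1 was -0.14 ± 0.08, with an adjusted p of 0.549 (edgeR). Itpr2, often named as the IP3 receptor of the ventricular myocyte (ENSMUSG00000030287, chromosome 6, 146108299 to 146502223, minus strand), averaged 34.2 ± 4.12 CPM among Epac1-PLN libraries and 33.7 ± 3.92 CPM in wildtype cells (SD, n = 5 each). Both groups ran from about the same lowest to the same highest library, 30.7 to 38.8 CPM in Epac1-PLN cells, compared with 30.2 to 38.9 CPM in wildtype cells. Its log2 fold change was 0.02, with a 95% interval of -0.20 to 0.24 (adjusted p = 0.967, edgeR). The level of Ryr2 per kb of exon union was a median of 36.1 times that of Itpr2 in Epac1-PLN cells and 34.8 times in wildtype cells. This fold depends on the length used. By longest transcript, Ryr2 averaged 140 and Itpr2 2.91 CPM per kb over all 10 libraries.

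Trdn encodes triadin, which anchors the calcium buffer calsequestrin to the ryanodine receptor (ENSMUSG00000019787, chromosome 10, 33083483 to 33476709, plus strand). It was at 637, 572, 569, 473 and 569 CPM in Epac1-PLN replicates 1 to 5 and at 461, 482, 461, 564 and 442 CPM in wildtype replicates 1 to 5. In Epac1-PLN cells 4 of 5 libraries lay above every wildtype library, and Epac1-PLN replicate 4 lay within the wildtype range. The log2 fold change was 0.23 ± 0.09, with a 95% interval of 0.04 to 0.41. Trdn had the smallest p of the 9 genes and ranked 939 among all tested genes, with an unadjusted p of 0.0227 and an adjusted p of 0.304 (edgeR), so it did not pass. Its adjusted p was 0.12 to 0.841 over 20 alternatives, with 0.123 and a log2 fold change of 0.28 without Epac1-PLN replicate 4.

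Asph is a locus with several products from different promoters and splice forms. They include junctin, the triadin relative that also links the release channel to calsequestrin, and the enzyme aspartyl beta-hydroxylase (ENSMUSG00000028207, chromosome 4, 9448069 to 9669344, minus strand). Counts per gene do not separate these products. Asph averaged 386 ± 24.7 CPM among Epac1-PLN libraries and 383 ± 29.6 CPM in wildtype cells (SD, n = 5 each), with libraries at 361 to 413 CPM in Epac1-PLN cells, compared with 350 to 418 CPM in wildtype cells. Its log2 fold change was 0.01 ± 0.07, with a 95% interval of -0.14 to 0.16 and an adjusted p of 0.97 (edgeR). The Epac1-PLN libraries all lay inside the wildtype range. The ratio of Trdn to Asph per kb was 2.26 to 3.03 in Epac1-PLN libraries and 1.94 to 2.32 in wildtype libraries, with overlap.

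Fkbp1a and Fkbp1b encode small FK506-binding proteins that attach to ryanodine receptors and stabilise the closed channel. Their coding sequences are shown because the paralogs were the least equal in level of the pairs described here, and near-identical sequences could share reads. The first 150 bases are given from the start codon, 5′ to 3′, as in the transcripts Fkbp1a-201 and Fkbp1b-201 of GENCODE M21, with the bases that differ between them in capitals.
Fkbp1a: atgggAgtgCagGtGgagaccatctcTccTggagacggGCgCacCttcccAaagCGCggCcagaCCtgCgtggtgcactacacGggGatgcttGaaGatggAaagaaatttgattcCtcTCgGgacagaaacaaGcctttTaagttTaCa
Fkbp1b: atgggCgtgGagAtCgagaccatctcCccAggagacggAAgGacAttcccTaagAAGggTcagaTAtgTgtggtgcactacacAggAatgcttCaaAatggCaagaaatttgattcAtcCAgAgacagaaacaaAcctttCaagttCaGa
Over the whole coding sequences of 327 bases each, the genes differed at 82 bases and were identical at 74.9% of positions, with no gaps. The longest identical run was 14 bases. Of 975 distinct stretches of 50 bases in Fkbp1b transcripts, 0 were found in spliced transcripts of any other gene, Fkbp1a included. For Fkbp1a, 3 of 4050 such stretches were found elsewhere, all in the pseudogene Fkbp1a-ps1.

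Fkbp1a (ENSMUSG00000032966, chromosome 2, 151542483 to 151561692, plus strand) was at 127, 131, 133, 150.2 and 134 CPM in Epac1-PLN replicates 1 to 5 and at 135, 147, 131, 125 and 130.2 CPM in wildtype replicates 1 to 5. Fkbp1a and Asph varied least among the tested genes. The coefficient of variation of Fkbp1a was 6.57% in Epac1-PLN cells and 6.13% in wildtype cells, and that of Asph was 6.39% in Epac1-PLN cells and 7.73% in wildtype cells. Its log2 fold change was 0.02 ± 0.07, with a 95% interval of -0.13 to 0.16 (adjusted p = 0.965, edgeR). Fkbp1b (ENSMUSG00000020635, chromosome 12, 4833175 to 4841595, minus strand) was close to the detection limit. It had 3, 2, 4, 4 and 3 counts in Epac1-PLN replicates 1 to 5 and 8, 1, 1, 5 and 1 counts in wildtype replicates 1 to 5. A floor of 3 counts equalled 0.193 to 0.278 CPM in Epac1-PLN libraries and 0.143 to 0.234 CPM in wildtype libraries, and 3 libraries of each genotype were at or under it. Over each group these were 16 counts in Epac1-PLN cells and 16 counts in wildtype cells, which corrected for depth is a ratio of 1.20 (95% exact binomial interval 0.562 to 2.56, counting error only). This interval leaves out the spread between mice and is not a range of detectable differences, which was not computed. Fkbp1b did not pass the filter. Per kb, Fkbp1a stood at 121 to 258 times Fkbp1b in Epac1-PLN libraries and 93.7 to 636 times in wildtype libraries, with only 1 to 8 Fkbp1b counts behind each ratio.

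Jph2 encodes junctophilin 2, the main cardiac protein that ties the T-tubule to the store (ENSMUSG00000017817, chromosome 2, 163336242 to 163397993, minus strand). It was at 795, 1037, 1081, 1109 and 986 CPM in Epac1-PLN replicates 1 to 5 and at 877, 762, 975, 925 and 1013 CPM in wildtype replicates 1 to 5. The genotypes overlapped, and within each genotype both males were below all 3 females. The log2 fold change was 0.14 ± 0.07, with a 95% interval of -0.02 to 0.29 (adjusted p = 0.476, edgeR). In females Jph2 was at 1037 to 1109 CPM among Epac1-PLN libraries and 925 to 1013 CPM in wildtype cells, without overlap, as for 2 of the 9 genes and 12.5% of all tested genes. In males it was at 795 to 986 CPM in Epac1-PLN cells, compared with 762 to 877 CPM in wildtype cells, with overlap. Jph1 encodes the isoform best known from skeletal muscle (ENSMUSG00000042686, chromosome 1, 16994938 to 17097889, minus strand). It was at 34.5, 45.5, 46.4, 46.9 and 41.2 CPM in Epac1-PLN replicates 1 to 5 and at 44.0, 46.8, 44.0, 56.6 and 52.3 CPM in wildtype replicates 1 to 5. The Epac1-PLN males were the 2 lowest libraries of all, and the others overlapped. The log2 fold change of Jph1 was -0.19 ± 0.08, with an unadjusted p of 0.038 and an adjusted p of 0.368 (edgeR), so it did not pass.

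The estimates for the junctophilins thus had opposite signs, and their ratio within a library was examined. Jph2 per kb was 27.1, 26.8, 27.3, 27.7 and 28.1 times Jph1 in Epac1-PLN replicates 1 to 5 and 23.4, 19.1, 26.0, 19.2 and 22.8 times in wildtype replicates 1 to 5. All Epac1-PLN libraries lay above all wildtype libraries. The difference in the mean log2 ratio was 0.32. Of 9 ratios between chosen pairs of these genes it was the only one without overlap between the genotypes. The other possible pairs were not examined, and some of them may separate the genotypes too. Ratios of Jph2 to every other tested gene separated the genotypes on the higher side in 1.13% of 12628 cases, and ratios of every other tested gene to Jph1 in 4.2%. No test was made of this ratio, because it was computed with the values of both genes known. Jph2 per kb of exon union was a median of 2.69 times Ryr2 in Epac1-PLN cells and 2.72 times in wildtype cells, with overlap. Trdn was 0.707 times Ryr2 in Epac1-PLN cells and 0.651 times in wildtype cells, also with overlap. These folds depend on the length used. By longest transcript, Jph2 averaged 227, Ryr2 140 and Trdn 116 CPM per kb over all 10 libraries.

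**Figure D2:**
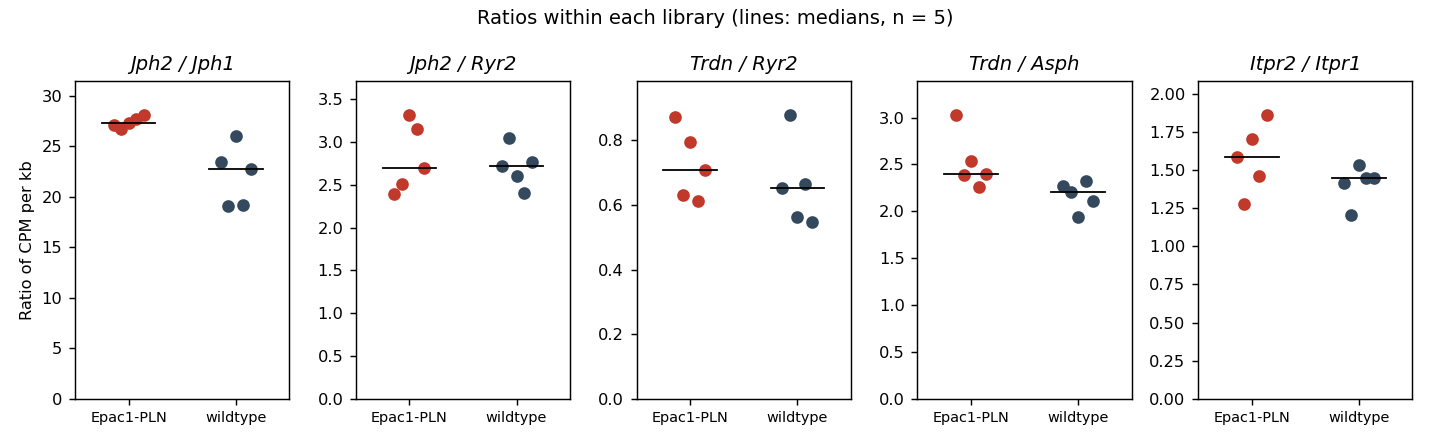
Ratio of the levels per kb of 5 gene pairs within each library, for Epac1-PLN cells (red, left) and wildtype cells (dark, right), with the median of 5 libraries as a line. The Jph2 to Jph1 ratio lies at 26.8 to 28.1 in Epac1-PLN cells, above 19.1 to 26.0 in wildtype cells, and the other ratios overlap.

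Bin1 encodes amphiphysin 2, a membrane-bending protein that shapes T-tubules and brings L-type channels to them (ENSMUSG00000024381, chromosome 18, 32377217 to 32435736, plus strand). Its level was low, with 23 to 50 counts per library in Epac1-PLN cells and 23 to 49 counts in wildtype cells. It was at 2.13, 2.42, 2.25, 3.33 and 2.00 CPM in Epac1-PLN replicates 1 to 5 and at 2.24, 3.43, 2.24, 1.88 and 1.8 CPM in wildtype replicates 1 to 5. Epac1-PLN replicate 4, a female, and wildtype replicate 2, a male, were the highest libraries of their groups, and the ranges overlapped. The log2 fold change was 0.09 ± 0.23, and its 95% interval of -0.40 to 0.58 was the widest of the 9 genes (adjusted p = 0.934, edgeR). Without Epac1-PLN replicate 4 the estimate was -0.07.

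**Figure D3:**
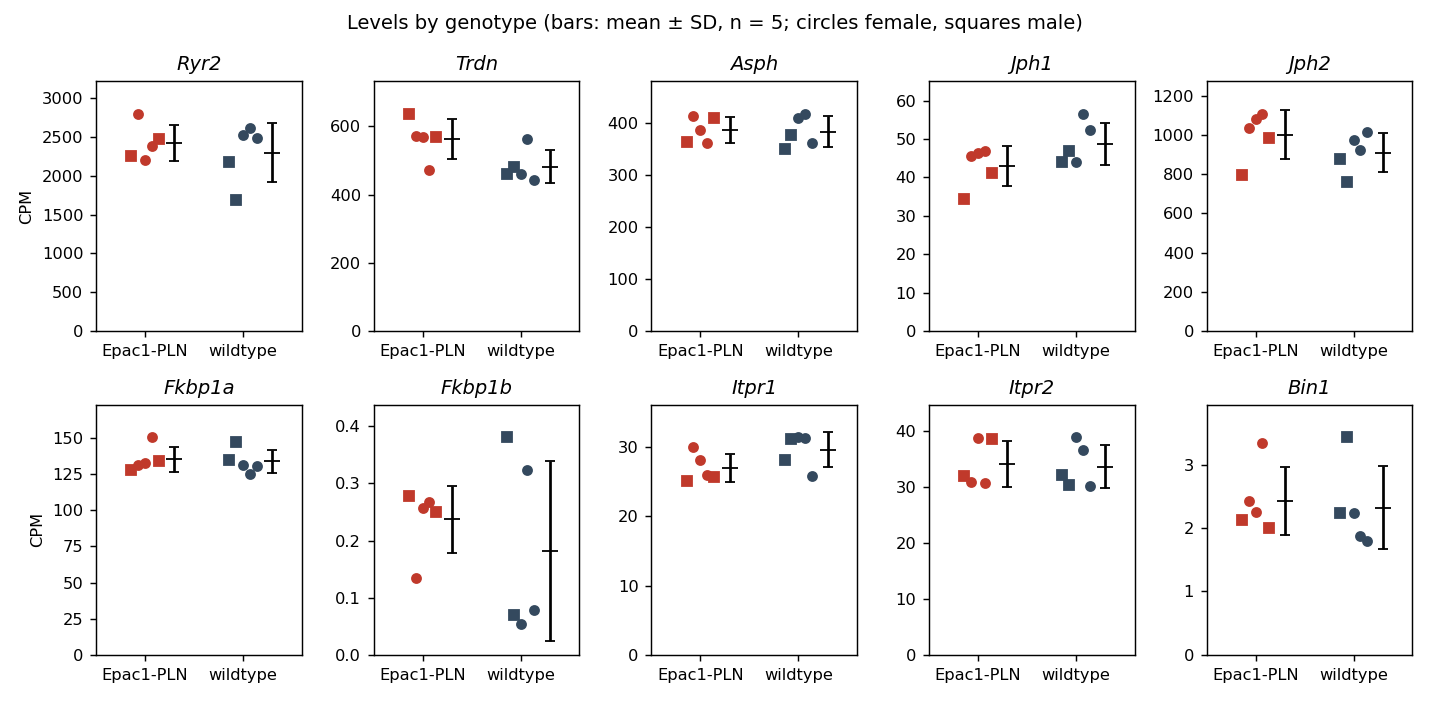
CPM of each of the 10 genes in every library, for Epac1-PLN cells (red, left) and wildtype cells (dark, right), with the mean and SD of 5 libraries as bars beside the points, and females as circles and males as squares. The ranges overlap for every gene, with 4 of 5 Epac1-PLN libraries above the wildtype libraries for Trdn, and Fkbp1b stays under 0.4 CPM.

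Sex gave estimates of similar size. Of the 9 genes, 0 differed between females and males at an adjusted p under 0.05, where 0.34% of all tested genes did (edgeR). This count was also 0 with DESeq2 and limma-voom. At an unadjusted p under 0.05, 3 of the 9 were higher in females, where 6.07% of all tested genes were higher and 10.4% passed in either direction. They were Jph2, Jph1 and Ryr2. Jph2 averaged 1023 ± 67.8 CPM in 6 females and 855 ± 99.9 CPM in 4 males, with a log2 fold change of 0.26 ± 0.07 and an adjusted p of 0.229 (edgeR). Jph1 averaged 48.6 ± 4.79 CPM in females and 41.6 ± 5.27 CPM in males (log2 fold change 0.23 ± 0.08, adjusted p = 0.365, edgeR). Ryr2 averaged 2501 ± 201 CPM in females and 2149 ± 332 CPM in males (log2 fold change 0.22 ± 0.10, adjusted p = 0.448, edgeR). Most markers of other cell types had estimates below 0 for females over males. Of the tested endothelial markers 0 of 8 had an estimate above 0 (median log2 fold change -0.23), of the macrophage and leukocyte markers 1 of 8 (-0.25), of the smooth muscle and pericyte markers 2 of 7 (-0.23), of the fibroblast markers 3 of 8 (-0.05) and of the atrial markers 1 of 3 (-1.64). The fibroblast marker Dcn was the only one called with sex, at -0.67 (adjusted p = 0.00967, edgeR). The summed levels overlapped for each list, with endothelial markers at 396 to 782 CPM in females and 479.9 to 644 CPM in males, and fibroblast markers at 242 to 432 CPM in females and 272 to 449 CPM in males. Their part in the estimates for the release and dyad genes was not tested. Without overlap between the sexes were 0 of the 9 genes and 2.08% of all tested genes. The genotype-by-sex term called 0 of the 9 genes and 0 of all tested genes, and 0 of the 9 and 474 of all (3.75%) had an unadjusted p under 0.05. For this term DESeq2 called 1 of all genes past the count filter and limma-voom 0. The largest such estimate was that of Bin1, at 0.86 ± 0.41 on the log2 scale (adjusted p = 0.993, edgeR).

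**Figure D4:**
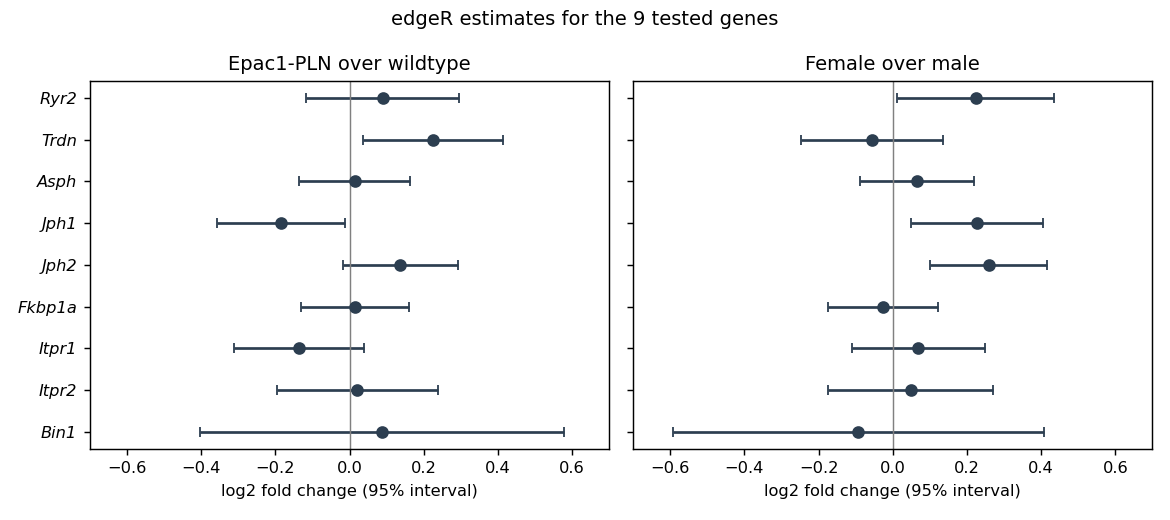
Log2 fold change with its 95% interval (edgeR) for the 9 tested genes, Epac1-PLN over wildtype on the left and female over male on the right. For genotype only the intervals of Trdn (0.04 to 0.41) and Jph1 (-0.36 to -0.01) leave out 0, and neither gene passed after adjustment.

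Shared sequence and overlapping neighbours were measured for each gene. Of the 10 genes, 6 shared no stretch of 50 bases with spliced transcripts of other genes on the same strand, and the largest share was that of Ryr2, 0.162% of 28967 stretches. The length of 50 bases was a choice, the read length being not given in the sources used here. Ryr2 overlaps the pseudogene Gm26956 (5 to 20 counts per library), Asph overlaps Clvs1 (2 to 13 counts), Itpr2 overlaps the pseudogene Gm15720 (0 to 4 counts), and Bin1 overlaps A830052D11Rik (0 counts). These counts are small beside those of Ryr2, Asph and Itpr2, which had at least 24154, 3910 and 346 counts in every library. Reads of the overlaps that were left uncounted, if any, cannot be seen in these counts.

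The partners of the release channels were described with 4 lists of 54 genes in all, and 1 of these genes changed with genotype. Among 18 regulators of release, 17 were tested, 1 rose and 0 fell, and the median log2 fold change was 0.05. The share that rose among all tested genes was 0.443%. Srl, the gene that rose, codes for sarcalumenin, which binds calcium inside the store. It was at 2037, 1992, 2142, 2350.5 and 2164 CPM in Epac1-PLN replicates 1 to 5 and at 1611, 1537, 1778, 1595 and 1524 CPM in wildtype replicates 1 to 5. All Epac1-PLN libraries were above all wildtype libraries, as for 1.5% of all tested genes. Its log2 fold change was 0.41 ± 0.07, with an adjusted p of 0.0174 (edgeR). Without wildtype replicate 1, Epac1-PLN replicate 3 or Epac1-PLN replicate 5 the adjusted p of Srl was 0.0667, 0.0631 and 0.0544. Hrc, a histidine-rich calcium-binding protein that binds triadin, averaged 2081 ± 188 CPM in Epac1-PLN cells, compared with 1749 ± 162 CPM in wildtype cells (log2 fold change 0.25, adjusted p = 0.203, edgeR). Tmem38a, a potassium channel of the store membrane, had a log2 fold change of 0.18 and S100a1, a calcium sensor that binds the release channel, one of -0.17 (adjusted p = 0.317 and 0.326, edgeR).

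Of 8 other isoforms and relatives in the same families, 4 passed the filter and 0 changed, and the median log2 fold change was -0.03. Ryr3 averaged 3.62 ± 1.71 CPM among Epac1-PLN libraries and 3.26 ± 0.722 CPM in wildtype cells, and Itpr3 5.94 ± 1.42 CPM in Epac1-PLN cells, compared with 5.01 ± 0.740 CPM in wildtype cells (log2 fold changes 0.10 and 0.25). The amphiphysin relative Bin3 averaged 7.71 ± 0.988 CPM in Epac1-PLN cells, compared with 8.71 ± 1.07 CPM in wildtype cells, and Amph 2.69 ± 0.857 CPM among Epac1-PLN libraries and 3.54 ± 1.22 CPM in wildtype cells (log2 fold changes -0.17 and -0.39). Both averaged more CPM than Bin1 in each genotype, without division by length. Per kb of exon union, Amph overlapped Bin1. Amph was at 0.398 to 0.901 and Bin1 at 0.485 to 0.810 CPM per kb in Epac1-PLN libraries. In wildtype libraries Amph was at 0.494 to 1.22 and Bin1 at 0.436 to 0.833 CPM per kb. Bin3 was higher, at 2.85 to 4.67 CPM per kb over all 10 libraries. Adjusted p-values of these 4 genes were 0.617 to 0.946 (edgeR). Ryr1, the skeletal muscle release channel, Jph3, Jph4 and Bin2 did not pass the filter. Ryr1 had 1 to 3 counts in any library.

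Of 12 T-tubule and surface membrane genes, 12 were tested and 0 changed, and the median log2 fold change was -0.06. Slc8a1, the sodium-calcium exchanger, was at 231 to 309 CPM among Epac1-PLN libraries and 177 to 273 CPM in wildtype cells (log2 fold change 0.37 ± 0.09, adjusted p = 0.105, edgeR). Cacnb2, an L-type channel subunit, averaged 87.6 ± 5.11 CPM in Epac1-PLN cells, compared with 109 ± 17.5 CPM in wildtype cells (-0.31 ± 0.10, adjusted p = 0.206, edgeR). Tcap, the telethonin gene, whose protein lies where the T-tubule meets the Z-disc, averaged 1673 ± 253 CPM among Epac1-PLN libraries and 2187 ± 389.9 CPM in wildtype cells (-0.39 ± 0.13, adjusted p = 0.243, edgeR). The genotypes overlapped for Slc8a1, Cacnb2 and Tcap.

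Of 16 genes of IP3 production and turnover, 16 were tested and 0 changed, and the median log2 fold change was 0.04. The smallest p-values were those of Plcd1 and Plcd3, phospholipases that release IP3 from membrane lipid. Plcd1 was at 14.8, 15.2, 13.6, 12.5 and 13.8 CPM in Epac1-PLN replicates 1 to 5 and at 21.4, 17, 18.01, 17.3 and 19.0 CPM in wildtype replicates 1 to 5. All Epac1-PLN libraries were below all wildtype libraries, as for 1.24% of all tested genes. Its log2 fold change was -0.41 ± 0.09, with an adjusted p of 0.0708 (edgeR). Plcd3 averaged 14.2 ± 2.12 CPM in Epac1-PLN cells, compared with 18.8 ± 2.75 CPM in wildtype cells (-0.40 ± 0.10, adjusted p = 0.0832, edgeR). Of the 17, 4, 12 and 16 tested genes of the 4 partner lists, DESeq2 called 4 in all, Srl, Slc8a1, Plcd1 and Plcd3. Its adjusted p-values were 0.0196, 0.0143 and 0.0134 for Slc8a1, Plcd1 and Plcd3. DESeq2 also called more of all 12629 tested genes, 265 against 81 with edgeR. Inpp5a, a phosphatase that removes IP3, had a log2 fold change of 0.17 (adjusted p = 0.342, edgeR).

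**Figure D5:**
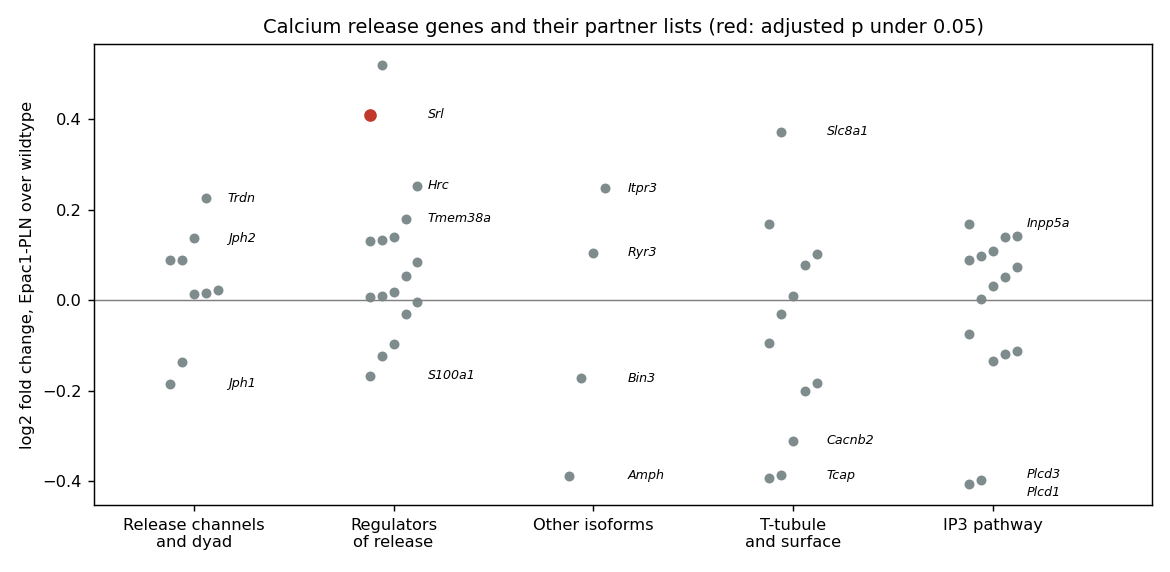
Log2 fold change, Epac1-PLN over wildtype, of the 9 tested release and dyad genes and of the tested genes of the 4 partner lists, with named genes labelled and genes past an adjusted p of 0.05 (edgeR) in red. Srl at 0.41 is the only gene past the threshold, and the release and dyad genes lie between -0.19 and 0.23.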

How the data were processed

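The deposited table of raw counts holds 1 column for each of 10 libraries. A second deposited table holds a normalized signal, each count divided by its library's size factor by the authors, which equalled recomputed median-of-ratios factors within a relative difference of 8.88e-16, and the counts were analysed. The submitters' processing notes list the genome build mm10 with STAR 2.3.0, HTSeq 0.5.4, FastQC 0.10.0, CASAVA 1.8.2, DESeq2 and DESeq. Settings, annotation version, the use of strand and the handling of reads in overlapping genes are details not given in the sources used here. The labels name no molecular identifiers, and count intervals reflect counting error alone.

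Genes were kept with filterByExpr of edgeR 4.0.16 on genotype (R 4.3.3), scaled by TMM factors and tested with the robust quasi-likelihood F test in a model of sex and genotype, with Benjamini-Hochberg adjustment over 12629 genes at 0.05. Standard errors were taken as |log2 fold change| over the root of F. Levels are CPM with TMM factors, and exon lengths come from GENCODE M21. DESeq2 1.42.0, limma-voom (limma 3.58.1), other scalings, filters and covariates and left-out libraries were alternatives. A symbol given to more than 1 identifier was kept for the one GENCODE M21 names so.

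The genes and lists were chosen with earlier results of these data known. Named were all 10 genes, Rapgef3 and Pln, every called partner gene, the next 3 by p of 3 lists and all tested other isoforms. Labels call each library a separate biological replicate, and no 2 libraries of a group were as close as sampling noise (20 pairs, with chi-square values of 7.55 to 30.3 per degree of freedom).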

Additional observations from a re-analysis of the deposited data

Results flagged for a closer look

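Libraries that stood far from the other 4 of their genotype were looked for by Dixon's criterion, the gap to the nearest library over the range of the group, with a critical value of 0.71. Of 20 groups, 3 passed it, and chance passes about 1 in 20. Fkbp1a was at 150.2 CPM in Epac1-PLN replicate 4, above 127 to 134 CPM in the other Epac1-PLN libraries. Fkbp1b was at 0.134 CPM in Epac1-PLN replicate 2, which is 2 counts. Bin1 was at 3.43 CPM in wildtype replicate 2, above 1.8 to 2.24 CPM in the other wildtype libraries. The genotype-by-sex term passed for 0 of the 9 genes tested, and Fkbp1b was not among them.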

How the results depend on the processing

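The count of 0 among the release and dyad genes held for genotype, sex and their interaction under every alternative run for it. Over all genes, 81 were called with genotype, against 265 with DESeq2, 498 without a count filter, 37 without the sex term and 4 in females alone. With sex 43 were called, against 159 with DESeq2 and 521 without a filter. For the interaction it was 0, against 1 with DESeq2 and 164 without a filter. Partner genes called with genotype were 1, against 4 with DESeq2, 7 without a filter and 0 in females alone. With the replicate number as a block, 2 genes and 0 partner genes were called with genotype and 3 genes with sex. The labels tie the numbers to no shared animal or day. The correlation of deviations exceeded 0.1 in 3 of 5 same-numbered pairs (-0.30 to 0.352), and 3 of 5 Epac1-PLN libraries correlated best with their own number, a hint from the data only, so the numbers were not taken as pairs. Leaving out each library in turn gave 14 to 103 genes and 0 to 2 partner genes with genotype, 18 to 93 genes with sex and 0 to 6 genes with the interaction. With genotype it was 14, 44, 41, 41 and 41 without wildtype replicates 1 to 5 and 46, 20 and 39 without Epac1-PLN replicates 1, 3 and 5. The highest count, 103, came from leaving out Epac1-PLN replicate 2 or 4. Single estimates near 0 changed sign, none of them called. With upper quartile factors the log2 fold change with genotype was -0.0034 for Asph and -0.00045 for Fkbp1a. In females alone it was -0.040 for Ryr2, -0.031 for Asph, -0.074 for Itpr2 and -0.25 for Ryr3. With the replicate block the log2 fold change with sex was -0.022 for Asph, -0.021 for Itpr1 and -0.16 for Itpr2. With single libraries left out, the log2 fold change with genotype ranged from -0.023 to 0.046 for Asph, -0.031 to 0.055 for Fkbp1a, -0.042 to 0.077 for Itpr2, -0.065 to 0.26 for Bin1 and -0.035 to 0.36 for Ryr3. That with sex ranged from -0.072 to 0.016 for Fkbp1a, -0.0012 to 0.12 for Itpr2 and -0.22 to 0.13 for Bin1. The causes were not tested. Srl kept its call in 15 of 20 alternatives, with an adjusted p of 0.0572 under the block and 0.387 in females alone. Depth limited Fkbp1b, at 1 to 8 counts, and Bin1, at 23 to 50 counts.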
